A study of Vitis riparia with 12 samples.

Results

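Shoot tips of the grapevine Vitis riparia held 72 genes, of 29970 listed, that were at least 16 times as abundant after 21 days of short photoperiod as in any other group of the study. They were chosen from group means of FPKM, a unit that divides fragments by transcript length and by mapped reads. The SD21 mean had to reach 10 FPKM and at least 16 times the largest of the LD21, SD7 and LD7 means, and all 3 SD21 libraries had to lie above all 9 other libraries. The SD21 levels therefore chose the members and are given as a description, without a test. All 72 were among the 21848 genes that were tested because they reached 1 FPKM in at least 3 libraries, and they made up 0.33% of them. The last condition alone was met by 18.6% of tested genes.

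The groups were SD21 (21 days at 13 h of light), LD21 (21 days at 15 h), SD7 (7 days at 13 h) and LD7 (7 days at 15 h), with 3 libraries each. All vines were V. riparia PI588259, potted plants grown in a greenhouse under 15 h of light before the treatments began. Each library came from tips of 4 nodes, taken in the morning from 5 vines. All groups were thus 1 genotype, and each library was a pool of several vines and of all the tissues of a tip. More cells of a type and more RNA per cell therefore cannot be told apart.

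Shortening days are the cue by which many northern woody plants stop growing and prepare their buds for winter. In V. riparia, a grapevine from high latitudes, shoot elongation slows under short days, the tip is shed, and the axillary buds become dormant. A shoot tip holds the apical meristem with the youngest leaves, tendrils and internodes, and its RNA is a mixture of theirs.

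FPKM totals were 982454 to 1106294 per library, and the absolute depth is unknown. Between 19424 and 19595 genes reached 1 FPKM in an SD21 library, and between 20144 and 20524 in the other 9. The identifiers of the files matched 0 entries of the reference gene table, so members are given by position, no gene family could be named, and the labelled tissue could not be checked against marker genes. Positions are those of the files, whose genome build is not given in the sources used here, and a locus length is its end minus its start.

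Most members were not silent outside SD21. At their highest group mean outside SD21, 47 of 72 stood at 1 FPKM or more, 18 at 5 or more and 8 at 10 or more. In all 9 other libraries 20 members had at least 1 FPKM, and 51 were above 0 in every library. At the other end, 21 members were listed at 0 in 1 or more of the 9 libraries, and 1 was listed at 0 in all of them. The set is therefore a group of genes far more abundant in SD21, and "switched on" describes only a part of it.

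The level outside SD21 divided the members into 3 classes. In the lowest class, 25 members had a largest other mean under 1 FPKM, and their SD21 means ran from 10.5 to 579 FPKM with a median of 18.3. In the middle class, 39 members lay between 1 and 10 FPKM outside SD21 and between 20.5 and 829 FPKM in SD21, with a median of 76.8. In the highest class, 8 members lay between 12.2 and 1962 FPKM outside SD21 and between 224 and 96037 FPKM in SD21. The median ratio of the SD21 mean to the largest other mean was 35.2 in the lowest class, leaving out the member at 0, and 24.7 and 19.3 in the middle and highest classes. Over the members with a ratio the median was 25.9. Counting the member at 0 elsewhere as past each limit, 53 were at 20 or more, 26 at 32 or more and 7 at 100 or more.

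**Figure D1:**
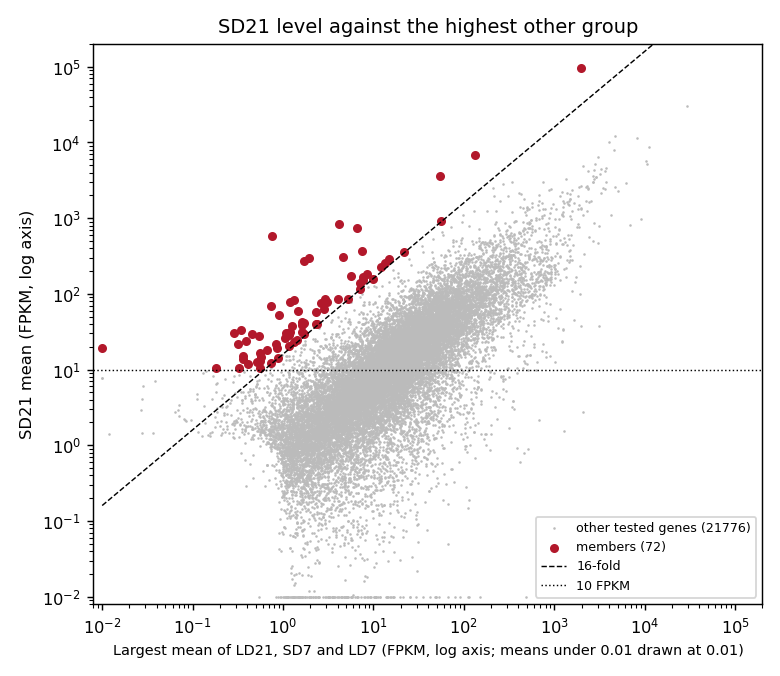
Group mean of FPKM in SD21 (vertical, log axis) against the largest of the LD21, SD7 and LD7 means (horizontal, log axis) for the 21848 tested genes, with the 72 members in red. The dashed line marks 16-fold and the dotted line 10 FPKM, and the members lie above both by the way they were chosen.

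The most abundant member, VIT_19s0014g02740, lies on chromosome 19 at 2789636 to 2790200 and is 564 bp long. It stood at 93161, 67274 and 127676 FPKM in the SD21 libraries, against 473, 353 and 1025 in LD21, 1629, 1472 and 2785 in SD7 and 1884, 1250 and 1446 in LD7. Ranked by group mean, it was gene 1 in SD21 and gene 243, 46 and 54 in LD21, SD7 and LD7, so it was already abundant in every group. The locus that touches it, at 2785038 to 2789636, stood at 2845, 6958 and 10610 FPKM in SD21, against 35.5, 37.9 and 104 in LD21, 131, 84.8 and 184 in SD7 and 115, 82.6 and 92.4 in LD7. The SD21 libraries did not fall in the same order at the 2 loci, since replicate 1 was the lowest at the longer locus and the middle one at the shorter. The 2 loci share a boundary, and how reads there were assigned is not given in the sources used here.

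Next in abundance was a member on chromosome 1 at 7835572 to 7837529, with 3471, 3050 and 4218 FPKM in SD21, against 15.2, 13.3 and 52.5 in LD21, 42.3, 32.4 and 88.7 in SD7 and 53.3, 19.6 and 27.7 in LD7. It ranked 21 in SD21 and 6295 in LD21. Of the 500 most abundant genes 13 were members in SD21, and 1 of the 72 was among the 500 most abundant in LD21. The members together held 10.6% ± 3.16 (SD, n = 3) of the FPKM of an SD21 library, against 0.0858% ± 0.0486 in LD21, 0.228% ± 0.0755 in SD7 and 0.179% ± 0.0343 in LD7. Without the 2 touching loci on chromosome 19 the shares were 1.10% ± 0.172 in SD21, against 0.0173% ± 0.00813 in LD21, 0.0264% ± 0.00733 in SD7 and 0.0216% ± 0.00338 in LD7. The sum was thus mostly that of a single locus.

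The 8 members that exceeded 10 FPKM outside SD21 also included 1 on chromosome 18 at 12992479 to 12996562. It had 252, 152 and 267 FPKM in SD21, against 6.38, 6.64 and 4.60 in LD21, 11.2, 10.3 and 15.2 in SD7 and 6.50, 10.9 and 14.3 in LD7. The others of that class were the 2 on chromosome 19, the 1 on chromosome 1, a pair on chromosome 16 and 2 on chromosome 2, at 5804093 to 5806987 and at 18560695 to 18562591. The LD21 mean was the lowest of the 4 group means in each of the 8 except the chromosome 2 member at 5804093 to 5806987, where it was the SD7 mean.

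The largest ratio belonged to VIT_00s0226g00170, on unplaced sequence (Un) at 14949259 to 14950130. It had 181, 581 and 975 FPKM in SD21, against 0, 0.494 and 0.850 in LD21, 0.0913, 0 and 2.16 in SD7 and 0.720, 0.134 and 0.227 in LD7, and its SD21 mean was 773 times the largest other mean. The SD21 libraries spanned a wide range, but the lowest of them was far above the highest of the other 9. The next ratio, 199, belonged to a short locus (258 bp) on Un at 18167341 to 18167599. It had 1363, 376 and 749 FPKM in SD21, against 1.18, 0 and 2.82 in LD21, 2.72, 5.50 and 4.28 in SD7 and 0, 6.67 and 4.51 in LD7.

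A member on chromosome 14 at 24943887 to 24944747 had 272, 271 and 276 FPKM in SD21, against 0.485, 1.01 and 1.74 in LD21, 0.871, 0.753 and 3.52 in SD7 and 0.784, 1.28 and 0.772 in LD7. Its ratio was 159, and its coefficient of variation over the SD21 libraries, 0.948%, was the smallest of the 72. A member on Un at 10666197 to 10666834 had 357, 231 and 300.2 FPKM in SD21 and was listed at 0 in each LD21 library, with 0.562, 1.49 and 3.75 in SD7 and 0.443, 0.617 and 0.349 in LD7. The fifth largest ratio, 114, was that of a member on chromosome 11 at 4812623 to 4814041, at 658, 541 and 1037 FPKM in SD21, against 5.14, 6.51 and 7.87 in LD21. That member had 2.67, 2.10 and 3.22 FPKM in SD7 and 4.94, 2.51 and 4.91 in LD7, so that it was present at a low level throughout.

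The 1 member listed at 0 in all 9 other libraries lay on chromosome 3 at 3186259 to 3187245, with 5.07, 34.5 and 18.1 FPKM in SD21. Its SD21 libraries varied widely, and no ratio can be given against groups at 0. Loci under 300 bp, whose FPKM is uncertain with reads of 43 bp, made up 4 of the 72 members (5.56%, against 3.15% of all listed loci). The shortest, of 111 bp on Un at 29729321 to 29729432, showed how uneven such values can be: it was at 38.8, 175 and 283 FPKM in SD21, and was listed at 0 in 7 of the other libraries and at 23.2 in LD21 replicate 3 and 18.5 in LD7 replicate 3. Member loci were shorter than tested loci in general, with a median of 1792 bp against 3378 bp.

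**Figure D2:**
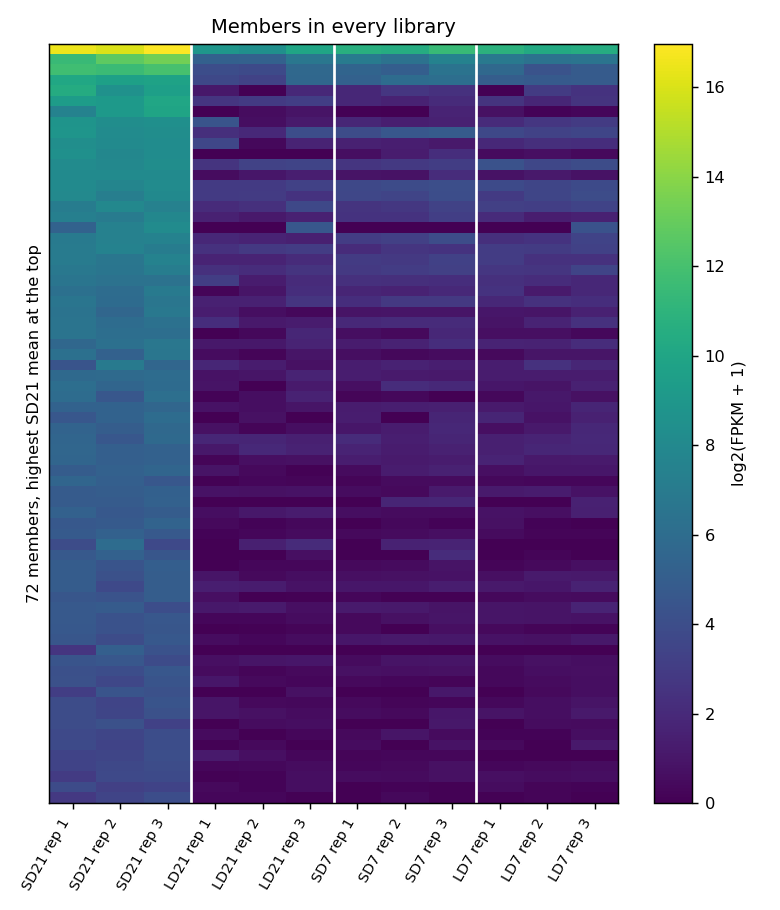
FPKM on the scale log2(FPKM + 1) of the 72 members (rows, highest SD21 mean at the top) in the 12 libraries (columns, by group). All 3 SD21 libraries are above the other 9 in every row, as the rule requires, and the rows differ in how much signal those 9 libraries hold.

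Over the 3 SD21 libraries the median coefficient of variation of the members was 25.8%. It was 14.4% for the 10448 tested genes with an SD21 mean of 10 FPKM or more, which were not matched to the members in level. The SD21 values chose the members, so the difference is a description. Variation was under 25% in 34 members and over 50% in 7. The largest, 95.0%, was found on chromosome 18 at 21636027 to 21636252, in 225 bp, where SD21 replicate 2 had 61.6 FPKM and replicates 1 and 3 had 14.4 and 12.2. On chromosome 5 at 1049443 to 1054222 replicate 2 was also far above the others, with 20.1, 123 and 46.6 FPKM in SD21. These 2 members and the one listed at 0 elsewhere were 3 of the 11 that were highest in SD21 replicate 2.

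The prevailing order was another one. SD21 replicate 3 held the highest SD21 value in 44 of 72 members (61.1%), against 26.3% of tested genes. Replicate 2 held the lowest value in 45 (62.5%, against 36.3% of tested genes with an SD21 mean of 10 FPKM or more). The SD21 values chose the members, so these shares are a description. The same replicate number stood out in the other groups, whose levels the rule capped. Of the members above 0 in the group, LD21 replicate 3 was the highest LD21 library in 40 of 69 (58.0%, against 33.2% of tested genes). SD7 replicate 3 was the highest SD7 library in 47 of 70 (67.1%, against 25.7%), and LD7 replicate 3 the highest LD7 library in 32 of 69 (46.4%, against 35.3%). The typical difference was modest. On the log2(FPKM + 1) scale, the median over members of replicate 3 relative to the mean of the other 2 libraries was 0.34 for SD21, 0.22 for LD21, 0.28 for SD7 and 0.14 for LD7, against -0.05, -0.04, -0.07 and -0.01 over tested genes. The labels do not say what a replicate number stands for, and its part in the levels was not tested. For SD21, replicates 2 and 3 were told apart by the labels alone, and a file header disagrees with them.

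**Figure D3:**
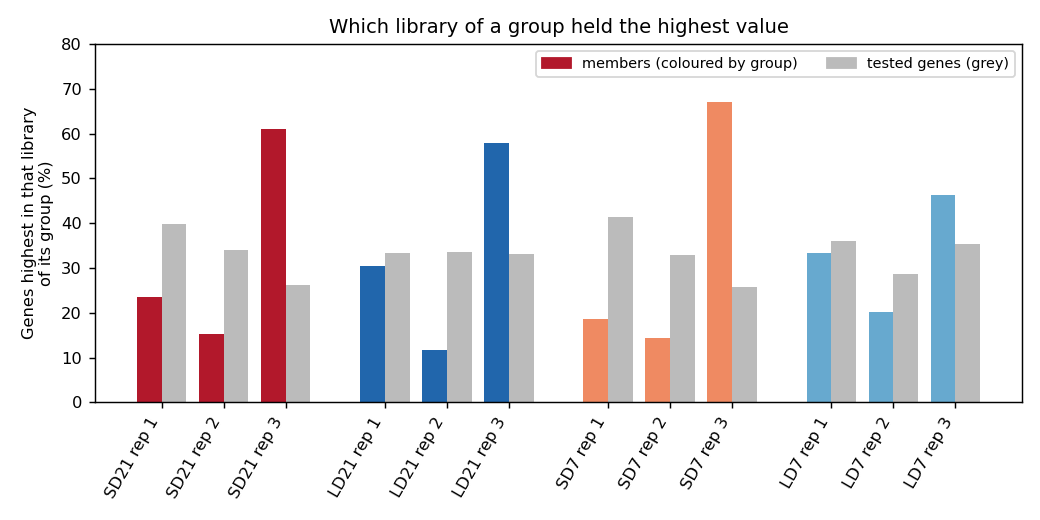
Share of genes (%) whose highest value within a group of 3 libraries was in the library named, for the members (coloured bars) and for all tested genes (grey bars). The tallest member bar of each group is replicate 3, at 61.1% for SD21, 58.0% for LD21, 67.1% for SD7 and 46.4% for LD7.

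Members lay on 18 of the 19 chromosomes. Of the 72, 64 were placed on numbered chromosomes, 7 were on Un (9.72%, against 8.16% of tested genes) and 1 on 18_random. Chromosome 18 held 9, chromosome 5 held 8 and chromosome 10 held 7, which were 0.593%, 0.673% and 1.09% of their tested genes. Chromosome 7 held 0 members among 1151 tested genes, although a gene there at 19422801 to 19425758 missed the set only by its SD21 mean of 9.44 FPKM. A run was taken as members with at most 5 other listed loci between neighbours. By that measure 14 of the 64 placed members (21.9%) lay in 5 runs, 1 of 6 members and 4 of 2.

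The run of 6 spanned 210 kb of chromosome 10, from 5939778 to 6149538, and held 13 listed loci. Its members together had 219, 119 and 273 FPKM in the SD21 libraries, against 4.20, 1.86 and 4.08 in LD21, 2.28, 1.76 and 1.74 in SD7 and 2.12, 4.73 and 4.76 in LD7. SD21 replicate 2 was the lowest SD21 library for each of the 6. The most abundant, at 6055708 to 6057359, had 74.4, 37.3 and 98.6 FPKM in SD21 and at most 0.954 elsewhere. Its neighbour, at 6053429 to 6055391, had 61.8, 23.2 and 72.1 FPKM in SD21 and at most 2.03 elsewhere. The members at 5939778 to 5946651, 5963272 to 5968899, 5980837 to 5982369 and 6143879 to 6149538 had SD21 means of 26.1, 16.3, 24.0 and 14.7 FPKM and no group mean above 1.06 FPKM elsewhere.

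The loci between them did not all share the pattern. Of the 5 tested loci of the run that are no members, 3 stood above 1 FPKM only in SD21 libraries, so they were tested only through SD21 and are described without a test. Of these, the locus at 6010887 to 6013524 averaged 7.50 ± 4.05 FPKM in SD21 and 0.230 ± 0.106 in LD21 (SD, n = 3 each). The other 2 were lower in SD21 than in LD21 in limma's moderated test. The locus at 6024745 to 6025240 averaged 7.29 ± 2.79 FPKM in SD21 and 21.1 ± 0.273 in LD21, which was a limma log2 fold change of -1.47 with an SE of 0.21 (adjusted p = 8.0e-05). The remaining 2 listed loci were too low to be tested, and 1 of them, at 6065143 to 6065526, was listed at 0 in all SD21 libraries.

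**Figure D4:**
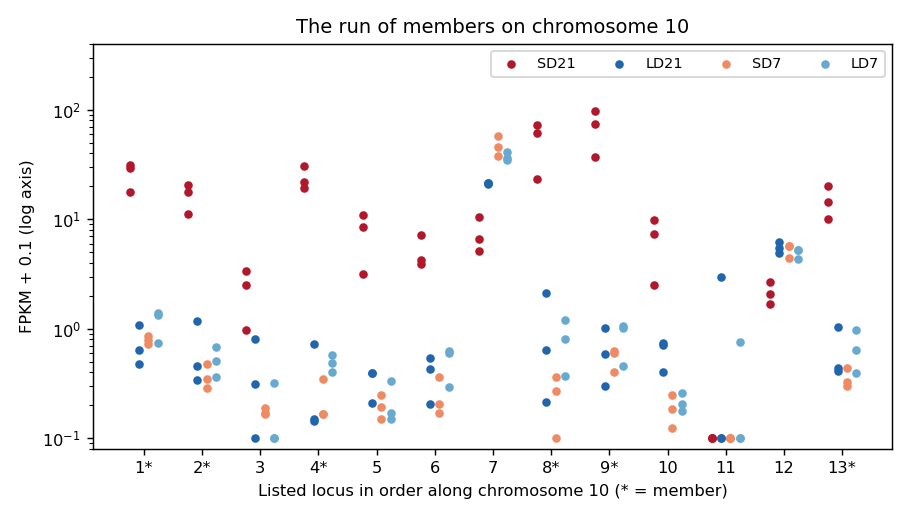
FPKM + 0.1 (log axis) of the 13 listed loci of the run on chromosome 10, in their order along the chromosome, with a point for each library and a colour for each group. The 6 members carry an asterisk, and loci 7 and 12 are those that were lower in SD21 than in LD21.

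A pair on chromosome 16, at 12323737 to 12324507 and 12359271 to 12360122, enclosed another locus of like level that missed the 16-fold limit. The first had 1106, 787 and 866 FPKM in SD21, against 11.5, 9.12 and 50.6 in LD21, 36.7, 63.0 and 68.2 in SD7 and 30.8, 26.5 and 28.8 in LD7. The enclosed locus, at 12343316 to 12344180, had 1100, 830 and 883 FPKM in SD21, against 10.0, 10.5 and 53.4 in LD21, 40.5, 68.5 and 72.3 in SD7 and 32.1, 25.6 and 29.3 in LD7. The 2 loci thus had nearly the same value in every library, down to the high LD21 replicate 3. The other member of the pair had 456, 290 and 323 FPKM in SD21, against 3.96, 2.95 and 15.3 in LD21, 14.1, 23.2 and 28.0 in SD7 and 11.8, 9.23 and 10.6 in LD7, and its libraries came in the same order as those of the first within each group. Whether these loci are alike in sequence could not be looked at, and how reads that fit several loci were counted is not given in the sources used here. A further locus between the pair, at 12348115 to 12356797, was listed at 0 in all 12 libraries.

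A pair on chromosome 18, at 24821728 to 24822234 and 24839098 to 24839594, had its libraries in the same order in SD21 and in LD21, but not in SD7 or LD7. The first had 328, 281 and 306 FPKM in SD21, against 11.2, 0.272 and 2.18 in LD21, 2.01, 1.67 and 1.26 in SD7 and 2.85, 3.83 and 3.61 in LD7. The second had 438, 320.0 and 351 FPKM in SD21, against 20.5, 0.561 and 1.29 in LD21, 2.49, 1.73 and 1.96 in SD7 and 3.27, 5.48 and 6.57 in LD7. Both were highest in LD21 replicate 1 among the 9 other libraries and lowest in LD21 replicate 2. The locus between them, at 24825860 to 24826369, differed from both, with 2.33, 1.87 and 3.77 FPKM in SD21 and 2.33, 2.15 and 1.54 in LD21 (limma log2 fold change 0.26 with an SE of 0.24, adjusted p = 0.36).

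The remaining pair on chromosome 18 had 92.5, 70.6 and 69.3 FPKM in SD21 at 12821157 to 12822999 and 13.9, 8.34 and 9.59 at 12841217 to 12848820, with at most 2.68 and 0.527 FPKM in the other 9 libraries. The locus between them, at 12823490 to 12840711, averaged 6.75 ± 2.04 FPKM in SD21 and stood at 0.218, 0 and 0.339 in the LD21 libraries. It was at most 0.339 FPKM outside SD21, so it was tested only through SD21 and no test is given. It was no member only because its SD21 mean was under 10 FPKM. The fifth run was the touching pair on chromosome 19.

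Next to the placed members lay 119 flanking loci that were not members, of which 85 were tested. In SD21 against LD21, limma called 36 of the 85 higher (42.4%, where 24.6% of all tested genes were) and 33 lower (38.8%, where 43.7% were). A difference of at least 4-fold was called higher in 15 (17.6%, where 4.61% of all tested genes were). Of the 85, 8 reached 1 FPKM in 3 libraries only with the help of SD21, where such loci had to be high. Among the 77 that reached it in the 9 other libraries, 28 were called higher (36.4%, where 23.0% of all genes so chosen were), 33 lower (42.9%, where 45.1% were) and 10 at least 4-fold higher (13.0%, where 4.16% were). The median log2 fold change was 0.05 over the 85 flanking loci and -0.30 over all tested genes, and -0.09 and -0.34 with that filter. After quantile normalization, which moved the median of all genes to 0.02, 41 of the 85 were higher (48.2%, against 33.6%), 27 lower (31.8%, against 32.5%) and 18 at least 4-fold higher (21.2%, against 6.33%). Outside the runs, 31 of 77 flanking loci that did not touch a member were called higher (40.3%, where 24.6% of all tested genes were). These 77 are another set than the 77 above, since loci tested only with the help of SD21 were kept.

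Besides the chromosome 16 locus above, the largest rise next to a member was on chromosome 2 at 18562591 to 18582606, which averaged 652 ± 291 FPKM in SD21 and 33.3 ± 22.1 in LD21 (SD, n = 3 each). In limma this was 4.34 on the log2 scale with an SE of 0.65 (adjusted p = 0.00015). It touches the member at 18560695 to 18562591, and the 2 may share reads. On chromosome 13, the locus at 3740332 to 3750179 averaged 165 ± 3.66 FPKM in SD21 and 18.5 ± 2.93 in LD21 (limma log2 fold change 3.10 with an SE of 0.15, adjusted p = 4.7e-08) and lay 12216 bp from a member. That member, at 3719036 to 3728116, had 26.6, 37.6 and 25.3 FPKM in SD21 and at most 0.603 in any other library, far below the 18.5 FPKM of its neighbour in LD21.

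Whether the members already differed between the photoperiods at day 7 can be tested, because SD7 against LD7 uses no SD21 library, although the rule caps the level of both groups. Limma called 0 of the 72 higher (0.357% of tested genes were) and 0 lower (0.476% were). Of the 72, 30 were tested only through SD21 and stood under 1 FPKM in at least 7 of the 9 other libraries, so that the test could show little for them. Among the other 42, which reached 1 FPKM in 3 libraries outside SD21, 0 were called in either direction (0.364% of genes so chosen were higher and 0.487% lower), and their median log2 fold change was 0.11, with 24 above 0 and 18 below. At an unadjusted p under 0.05, 2 of the 72 were higher and 2 lower, where 14.9% of tested genes passed that limit in either direction. The libraries did not overlap in 4 members that were higher (11.1% of tested genes) and 9 that were lower (13.7%). The median log2 fold change was 0.04 over the 72 members, 38 above 0 and 33 below, and -0.03 over tested genes.

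The smallest adjusted p at day 7, 0.071, belonged to the member on chromosome 2 at 5804093 to 5806987. It had 5.16, 6.19 and 7.56 FPKM in SD7 and 18.5, 11.1 and 14.6 in LD7, a limma log2 fold change of -1.10 with an SE of 0.25. Its SD7 libraries were all below its LD7 libraries, while its SD21 libraries, at 294, 239 and 324 FPKM, were the highest of all. Without LD21 replicate 1, which enters the shared estimate of the spread, it was called lower (adjusted p = 0.035 in limma). In the other direction, the member on chromosome 5 at 2684033 to 2685262 had 4.50, 4.58 and 7.82 FPKM in SD7 and 3.18, 1.58 and 1.92 in LD7 (limma log2 fold change 1.04 with an SE of 0.26, adjusted p = 0.097).

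**Figure D5:**
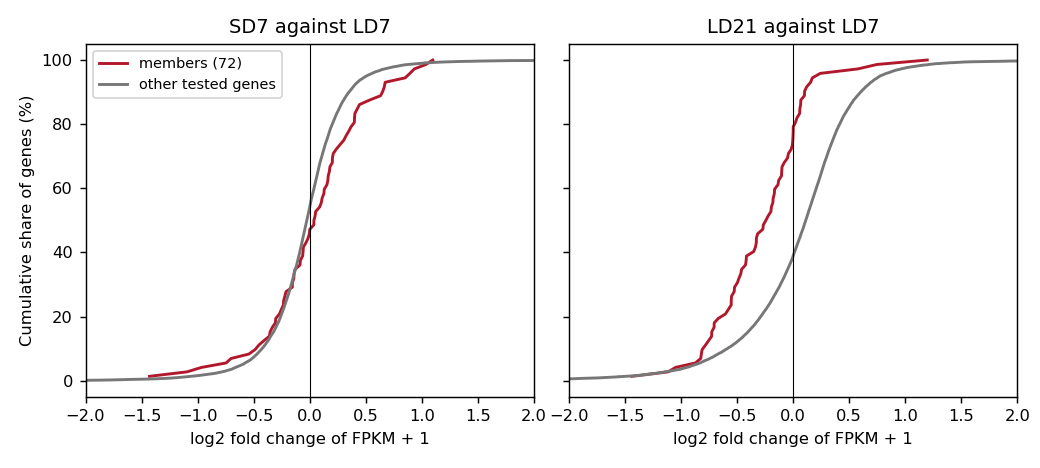
Cumulative share of genes (%) by log2 fold change of FPKM + 1 for the 72 members (red) and the other tested genes (grey), in SD7 against LD7 and in LD21 against LD7. In LD21 against LD7 the curve of the members lies left of the other, with medians of -0.23 over members and 0.11 over all tested genes.

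Under continued long days, few members passed the test between the days. In LD21 against LD7, limma called 6 of the 72 lower (7.63% of tested genes were) and 1 higher (10.5% were). The libraries did not overlap in 12 members that were lower (14.8% of tested genes) and 2 that were higher (28.2%). Over the 72, the shares that were lower thus lay near those of all genes, and the shares that were higher lay under them. The sign of the difference was uneven as well. Of the 72, 54 had a log2 fold change below 0 (75.0%, against 38.9% of tested genes), and the median was -0.23 over members and 0.11 over tested genes. Of the 42 members that reached 1 FPKM in 3 of the 9 libraries outside SD21, 37 were below 0 (88.1%, against 38.2% of genes so chosen), with a median of -0.47. Of these 42, 6 were called lower (14.3%, where 7.84% of genes so chosen were) and 0 higher (10.8% were), and the libraries did not overlap in 10 that were lower (23.8%, where 14.8% were) and 1 that was higher (2.38%, where 28.9% were). Of the 3 group means outside SD21, the LD21 mean was the lowest in 43 of the 71 members above 0 there (60.6%, against 30.7% of tested genes), and the SD7 mean was the highest in 35 (49.3%, against 26.7%).

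VIT_19s0014g02740 had the largest called fall, at -1.44 on the log2 scale with an SE of 0.39 (adjusted p = 0.031 in limma) in LD21 against LD7. LD21 replicate 3, at 1025 FPKM, lay well above the other LD21 libraries and still under the lowest LD7 library, at 1250. On chromosome 18 at 11779262 to 11781156, a member had 0.178, 0.583 and 0.668 FPKM in LD21 and 2.25, 1.26 and 1.31 in LD7, or -0.82 on the log2 scale with an SE of 0.19 (adjusted p = 0.016 in limma). On chromosome 2 at 18560695 to 18562591, another, at 275, 213 and 287 FPKM in SD21, had 6.24, 6.54 and 8.79 FPKM in LD21 and 13.3, 10.5 and 13.0 in LD7 (-0.70 with an SE of 0.17, adjusted p = 0.017 in limma). The LD21 libraries of both lay under all their LD7 libraries.

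The other 3 that fell were on chromosome 2 at 5804093 to 5806987, on chromosome 5 at 3549466 to 3551839 and on chromosome 8 at 9434298 to 9437625, with log2 fold changes of -0.82 ± 0.25, -1.05 ± 0.32 and -0.81 ± 0.24 (SE, adjusted p = 0.042, 0.044 and 0.039 in limma). The first had 4.94, 9.21 and 10.0 FPKM in LD21 and 18.5, 11.1 and 14.6 in LD7. The second had 2.73, 2.22 and 1.84 in LD21 and 3.89, 4.69 and 9.87 in LD7, and the last 2.15, 2.24 and 3.17 in LD21 and 7.04, 4.37 and 4.32 in LD7. In all 3 the LD21 libraries lay below the LD7 libraries. The 1 call in the other direction, on chromosome 14 at 29219504 to 29220585, had LD21 values of 1.38, 0.615 and 0.235 FPKM, and each LD7 library listed it at 0. It reached 1 FPKM outside SD21 in 1 library alone, so it was tested only through SD21, and its call was kept in 4 of 18 alternative fits.

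Leaving out libraries took away calls among these 7, and among all tested genes as well. In the main fit 10.5% of tested genes were called higher and 7.63% lower. Without LD7 replicates 1, 2 and 3 the shares were 6.15%, 3.37% and 2.72% higher and 5.87%, 4.01% and 3.51% lower. Without LD21 replicates 1 and 2 they were 6.83% and 2.54% higher and 5.42% and 3.85% lower. Of the 7, 1, 3 and 1 were still called without LD7 replicates 1, 2 and 3, 1 and 1 without LD21 replicates 1 and 2, 4 without SD7 replicate 2, and 2 without the filter on low values. Other members were called in some of these fits, 1 without LD7 replicate 1, 2 without LD21 replicate 1 and 4 without LD21 replicate 3. The call at 11779262 to 11781156 was lost in 1 of 18 alternative fits, without LD7 replicate 1, where its adjusted p was 0.0504. That at 18560695 to 18562591 was lost without LD7 replicate 1 or 3 or LD21 replicate 1 or 2, with adjusted p up to 0.0703, and that of VIT_19s0014g02740 without any LD7 library or LD21 replicate 1 or 2, or without the filter, up to 0.117. The other 4 calls were each lost in at least 8 of the 18.

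The limits of the rule fell in a continuous range of values. At the fold limit, the members just inside were on chromosome 3 at 17193256 to 17218628 (84.7 FPKM in SD21, 16.1 times the largest other mean) and on chromosome 5 at 4007203 to 4018020 (115 FPKM, 16.2 times). Just outside were genes on chromosome 3 at 5124597 to 5126444 (15.6 FPKM, 15.98 times) and on chromosome 10 at 3527356 to 3540217 (37.7 FPKM, 15.8 times). At the limit on the mean, the members just inside were on chromosome 16 at 3348259 to 3349973 (10.5 FPKM) and on chromosome 18 at 12841217 to 12848820 (10.6 FPKM). Just outside were genes on chromosome 6 at 7983728 to 7986100 (9.59 FPKM, 68.6 times) and the gene on chromosome 7 given above. Another 85 genes met the other conditions at 8 to 16 times, 18 did so at SD21 means of 5 to 10 FPKM, and 8 failed only because their libraries overlapped.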

How the data were processed

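RNA sequencing of 12 shoot tip libraries (43 bp reads) gave a table each. The deposited values are FPKM computed by the authors, per the file headers. The submitters' processing notes name Cufflinks 2.2.1, TopHat2 2.0.13, Bowtie2 2.2.4, cutadapt 1.8.1 and FastQC 0.11.3. Their settings, the annotation and the build of the genome were not stated there. One header disagrees with the labels: the values of SD21 replicate 3 stand under the name of replicate 2. The 2 libraries shared at most 1 nonzero value, so neither was a copy of the other. That does not show which is replicate 2 and which is replicate 3, and the labels were followed. Per the series design text the replicates are biological.

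The members and lists were chosen with earlier results of these data known. Named members were those with the 10 highest SD21 means, the 5 largest ratios, that at 0 in all 9 other libraries, all in a run of 3 or more, all called in a contrast without SD21, those at the limits and the extremes of variation. Other loci were chosen for their place beside members or after their values were seen. Only 2 identifiers are printed, since the files pair none with a name, and planned lists by gene name were not run.

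From the FPKM, a group means model on log2(FPKM + 1) was computed over the 12 libraries in limma 3.58.1 and R 4.3.3 (eBayes, trend and robust). Genes had to reach 1 FPKM in 3 libraries, and p-values were adjusted by Benjamini-Hochberg over 21848 genes, with a threshold of 0.05. An exact permutation test of 3 libraries against 3 cannot give p below 0.1. Fold changes on this scale understate those of low genes. The model was also run on simulated data with changes placed in SD7 against LD7 only, in genes above the lowest levels. The outcome is not reported here and does not bear on the other contrasts or on members near 0. Python 3.11.15 with pandas 2.3.3 computed the descriptions, and matplotlib 3.10.9 drew the plots. Alternatives were other scalings, pseudocounts, filters, limits of the rule and fits, and each library left out. Without counts, the precision from depth is unknown.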

Additional observations from a re-analysis of the deposited data

How the results depend on the processing

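The number of members, 72, was 157 at a limit of 8 times and 26 at 32 times, and 39 when the ratio was taken of FPKM + 1. It was 86 with quantile normalization, 87 with median-ratio scaling, 90 and 57 at SD21 means of 5 and 20 FPKM, and 63 to 76 with each library left out. Of the 72, 71 remained with quantile normalization and 61 without SD21 replicate 3. Members in runs numbered 13 to 16 under the other spacings. No member was called in SD7 against LD7 in limma under any processing choice (2 higher and 2 lower at an unadjusted p under 0.05 in the fit reported). Few genes of any kind were: over the alternative choices 0.0137% to 0.462% of all genes were called higher and 0.0275% to 0.439% lower. A count of 0 among 72 thus says little about the members. With each library left out the number of members called was 0 to 1, where 0% to 0.419% of tested genes were higher and 0% to 0.571% lower. The 1 was the chromosome 2 member at 5804093 to 5806987, lower without LD21 replicate 1 (adjusted p = 0.035 in limma, range 0.035 to 0.205). The number of members called in LD21 against LD7, 7, was 2 without the filter on low values and 1 to 10 with each library left out, and of the original 7 between 1 and 7 were among them. Of all genes, 6.69% were called higher and 4.38% lower without the filter. With each library left out, 2.54% to 12.3% of tested genes were called higher and 3.51% to 8.21% lower. Quantile normalization turned the split of all calls, to 7.64% higher and 8.90% lower in that contrast and 0.462% higher and 0.394% lower in SD7 against LD7. Members below 0 in LD21 against LD7 were 50 of 72 with it, 47 to 60 of 72 without single LD or SD7 libraries, and 42 of the 56 still tested without any 1 SD21 library. Flanking loci called higher were 28 to 37 with each library left out, and those at least 4-fold higher 11 to 16. Of the flanking loci, 80 were tested without an SD21 library and 85 without another. These counts kept loci that reached 1 FPKM in 3 libraries only with the help of SD21. The shares called higher were 35.0% to 43.5%, against 22.3% to 24.6% of all tested genes. At least 4-fold higher were 13.8% to 18.8%, against 4.32% to 4.97%. The 4-fold count was 10 among loci that passed the filter without SD21. That count, the count below 0 and the counts by replicate number were added after seeing the data. Replicate 3 was highest in most members of SD21, LD21 and SD7 also after quantile normalization (43, 42 and 50) and median-ratio scaling (43, 40 and 49), and in 31 and 32 of 69 in LD7. With the replicate number as a block, 0 members were called in SD7 against LD7, as without it (0.146% of tested genes were higher and 0.192% lower). In LD21 against LD7 the block gave 0 higher and 8 lower, against 1 and 6: the 1 higher call was lost (adjusted p = 0.075), the 6 lower ones remained and 2 others were added. With the block 9.11% of all tested genes were called higher in LD21 against LD7 and 6.80% lower. Flanking loci called higher were 36 in both fits (42.4%, against 24.5% of all tested genes with the block and 24.6% without). Whether same-numbered libraries deviated together was looked at over all tested genes and not over the members alone. The correlations were -0.0685 to 0.0521 in SD7 against LD7, -0.0076 to 0.0981 in LD21 against LD7 and 0.0272 to 0.203 in SD21 against LD21. Of 6 libraries, 1, 2 and 2 correlated best with their own number. An effect shared by the members of same-numbered libraries was not tested. The block, the correlations and the counts by replicate number took SD21 replicates 2 and 3 as labelled, where a file header disagrees.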
